A study of Mus musculus with 8 samples.

Results

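The genes described are those of the constitutive proteasome, the protease complex that degrades ubiquitin-tagged proteins in the cytosol and nucleus. They were taken by symbol from the probe annotation: the alpha and beta subunits of the core particle, the ATPase and non-ATPase subunits of the cap, the assembly chaperones of both, and the alternative activators Psme3 and Psme4 with the inhibitor Psmf1. A gene counted when a row of the table was annotated with it alone, and the row with the highest mean over the 8 arrays stood for it. This gave 40 genes of the 22180 tested, namely 13 of the core, 17 of the cap and 10 chaperones and regulators. Psma4 has rows only in common with another gene and was not analysed here.

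The arrays hold RNA of mesenchymal cells from the lungs of 11-week-old C57BL/6J mice, 4 arrays from mice that received PBS (control) and 4 from mice that received bleomycin, a DNA-damaging drug that injures the lung. Both were instilled through the trachea, no other allele or agent is labelled, and all cells were taken on day 10. The cells were sorted as negative for CD45, CD31 and EpCAM, surface proteins of leukocytes, endothelium and epithelium, so they are defined by what they lack and may be a mixture. The labels do not say whether an array is 1 mouse or a pool, nor that replicates are separate animals. If they are not, the p-values reflect a spread that may be technical. Values are taken as log2 signals from their range, since no scale is named, and fold values rest on this. A level of 1 probe row cannot be set against that of another gene.

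In the proteasome a barrel of stacked alpha and beta rings encloses the proteolytic sites, and a cap, made of an ATPase base and a lid, recognises, unfolds and feeds in tagged proteins. Subunits are needed in fixed proportions, dedicated chaperones build the rings and the base, and a shared transcription factor, Nfe2l1, is known to raise many subunit genes together when protease capacity is short. Fibroblasts that make matrix carry a high load of protein synthesis and folding, and proteasome inhibitors have been studied in models of fibrosis.

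Proteasome transcripts were slightly higher on the bleomycin arrays. The difference was above 0 in 39 of the 40 genes, against 54.8% of all genes tested, with a median log2 difference of 0.22, or 1.17-fold, against 0.03 for all genes. Of the 40 genes 13 rose and none fell (limma, Benjamini-Hochberg adjusted p over all genes under 0.05). That is 32.5% of them, where 9.12% of all genes rose and 8.24% fell. The members lie mostly among the brighter genes, of which more rose: without the dimmest 50% of genes 18.4% of all rose, and 16 of the 38 members tested. At an unadjusted p under 0.05, 23 members were higher and none lower, against 16.5% and 14.1% of all genes. In 24 genes every bleomycin array lay above every control array, as was so for 12.5% of all genes tested. Only Psmd10 differed by more than 1.5-fold. The genes with the next largest differences, Psmd8, Psmd6, Psmd2 and Psmc4, lay between 1.34- and 1.38-fold.

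The number of genes past the threshold depended on single arrays. Psmb5 and Psma5 were just inside it (adjusted p of 0.0423 and 0.0449), and Psmc2 and Psmb1 just outside (0.0508 and 0.0532). Leaving out 1 array gave between 4 and 12 genes, with 7, 6 and 5 without control replicates 1, 2 and 3, and 4, 8 and 5 without bleomycin replicates 1, 2 and 3. Psmc4, Psmd6, Psmd8 and Psmd10 passed in all 8 of these fits, and Psma5 and Psmd13 in none of them. The sign was above 0 for 39 genes in each of them. Centring every array on its median left 9 of the 13 (Psma5, Psmb5, Psmd12 and Psmd13 did not pass). Over all genes that centring turned 2022 higher and 1828 lower into 1623 and 2314.

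**Figure D1:**
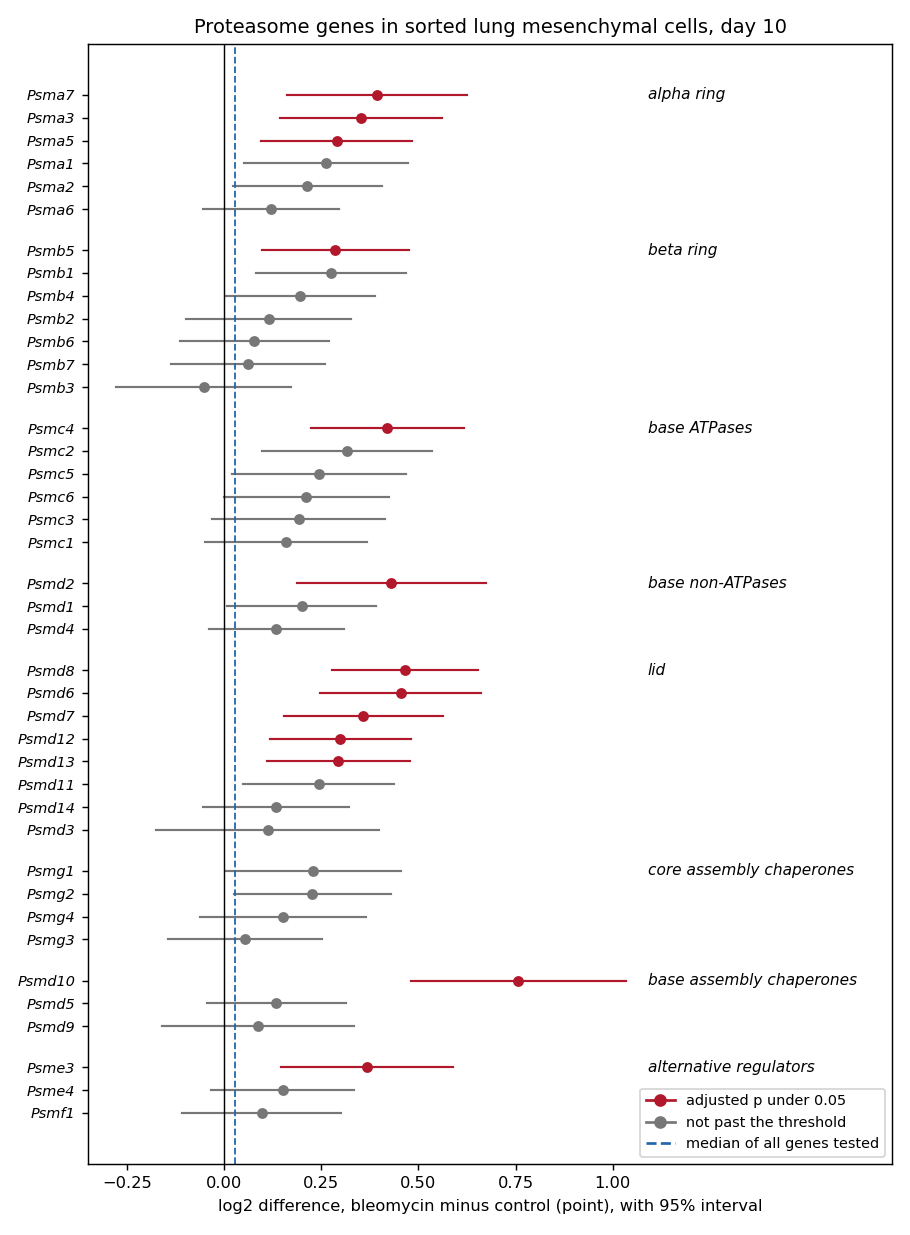
Log2 difference (bleomycin minus control, points) of each of the 40 genes with its 95% interval from limma (lines), grouped by role; red marks an adjusted p under 0.05 and the dashed line is the median of all genes tested, 0.03. All points but Psmb3, at -0.05, lie above 0, and Psmd10, at 0.76, lies apart from the rest.

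The shift was visible on every bleomycin array and differed in size between them. Relative to each gene's control mean, the median over the 40 genes was 0.29, 0.13, 0.26 and 0.18 on bleomycin replicates 1, 2, 3 and 4, and the genes above their control mean numbered 39, 33, 39 and 38. On the control arrays that median was 0.02, -0.06, 0.00 and 0.06, with 22, 11, 20 and 33 genes above. Bleomycin replicate 2 was thus the closest to the controls, and among the controls replicate 2 was the lowest and replicate 4 the highest by this median. The median over all genes on the bleomycin arrays was 0.01 to 0.03. Rows without a gene were lower there, with array medians of 4.20 to 4.35 against 4.44 to 4.52 on control arrays. Whether this bears on the proteasome shift was not tested.

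**Figure D2:**
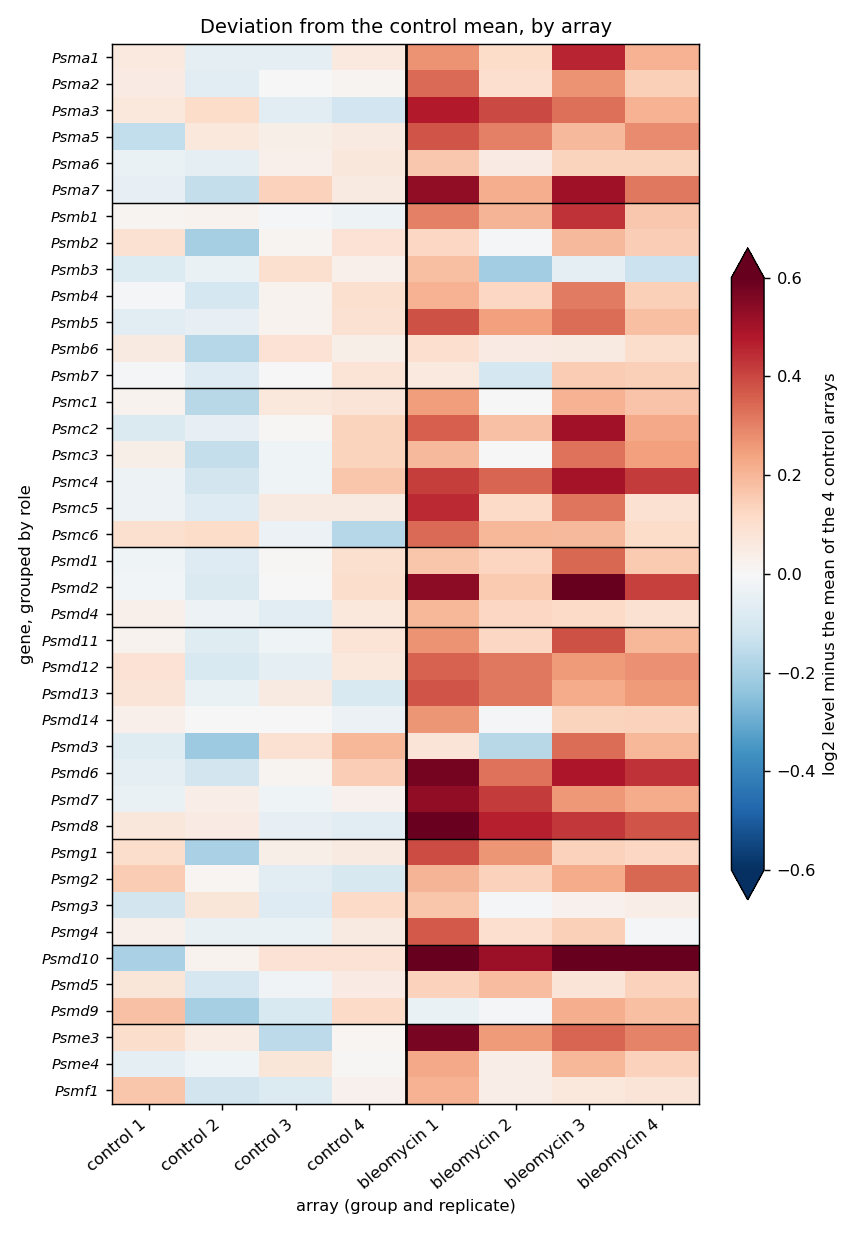
Log2 level of each gene (rows) on each array (columns) minus the mean of the 4 control arrays, with lines between roles, from the top alpha ring, beta ring, base ATPases, base non-ATPases, lid, core assembly chaperones, base assembly chaperones and alternative regulators. The bleomycin columns are red for nearly all genes, palest on replicate 2, and Psmb3 is the one row that is blue on 3 of the 4.

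Other differences between the groups ran along with this one. All 7 measured markers of proliferation rose. Their mean level was 4.64 to 4.92 on control arrays, and 7.28, 6.70, 6.76 and 6.38 on bleomycin replicates 1, 2, 3 and 4. It was highest on replicate 1, as was the proteasome median, but lowest on replicate 4, while the proteasome median was lowest on replicate 2. Of 8 markers each, 7 of alveolar epithelium and 6 of blood endothelium fell and none rose. Their mean levels were 8.81 to 9.78 and 8.16 to 9.33 in controls, against 6.96 to 7.99 and 7.32 to 7.86 after bleomycin. In the controls both were highest on replicates 1 and 2. The sort was to remove both cell types. Of 8 leukocyte markers 3 rose and 1 fell (mean levels of 6.52 to 6.94 and 6.68 to 6.96), and of 8 mesenchymal markers 5 rose and 2 fell, at 11.16 to 11.39 and 11.51 to 11.75. Among all genes 9.12% rose and 8.24% fell. The part of the markers in the proteasome result was not tested. In such a mixture more cells of a type and more RNA per cell cannot be told apart. Without control replicates 1 and 2 the median difference of the 40 genes was 0.20, and 3 of them, Psma3, Psmd8 and Psmd10, passed. Within replicates 1 and 2 of both groups it was 0.22 and within replicates 3 and 4 it was 0.20, and with 2 arrays a group none passed. At an unadjusted p under 0.05, 12 and 8 of the 40 were higher, against 12.9% and 11.3% of all genes in the same fits.

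**Figure D3:**
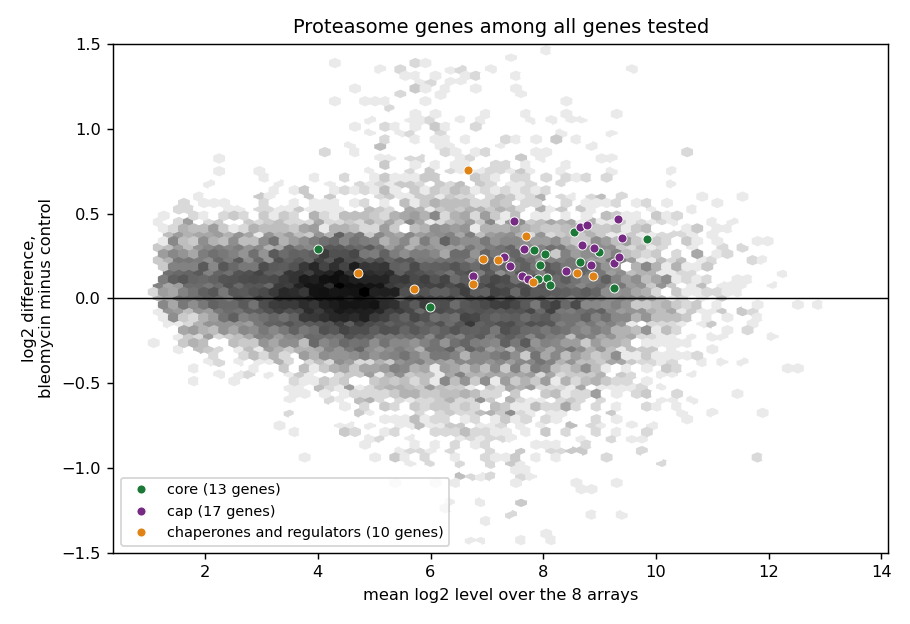
Mean log2 level over the 8 arrays (horizontal) against the log2 difference, bleomycin minus control (vertical), for all genes tested (grey, darker where more genes lie, on a log count; 265 genes beyond 1.5 in either direction are not drawn) and for the 13 core (green), 17 cap (purple) and 10 chaperone and regulator genes (orange). Proteasome genes sit mostly among the brighter rows and in the upper part of a cloud that is spread about 0.

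Both parts of the particle were higher. Of 13 core genes 4 rose, with a median difference of 0.21, and of 17 cap genes 7 rose, with a median of 0.24. That is 30.8% and 41.2% of them, where 9.12% of all genes rose. In the core 12 of 13 differences and in the cap 17 of 17 were above 0, against 54.8% of all genes. The difference between core and cap was not tested. On the control arrays the mean over the core genes was 7.78 to 7.88 and over the cap genes 8.13 to 8.25. On the bleomycin arrays they were 7.95 to 8.11 and 8.37 to 8.54, so neither overlapped.

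The alpha rings form the gates of the barrel, through which proteins enter. Of 6 alpha genes 3 rose, the median difference was 0.28 and the groups did not overlap in 5. Among all genes 9.12% rose, and in 12.5% the bleomycin arrays lay wholly above the controls. Psma7 read 8.30, 8.20, 8.49 and 8.40 on the control arrays and 8.88, 8.56, 8.86 and 8.66 on the bleomycin arrays. Its lowest bleomycin array lay just above the highest control, and the difference was 0.39 ± 0.10 (log2, SE, as below; limma adjusted p = 0.0264). Psma3, whose row has the highest mean signal of the 40, read 9.73, 9.78, 9.61 and 9.56 in controls and 10.15, 10.07, 10.00 and 9.88 after bleomycin, a difference of 0.35 ± 0.09 (adjusted p = 0.0267). Psma5 rose by 0.29 ± 0.09, from 3.71, 3.92, 3.89 and 3.91 to 4.24, 4.16, 4.05 and 4.14. These levels lie below the medians of the rows without a gene, 4.44 to 4.52 on control and 4.20 to 4.35 on bleomycin arrays, except on bleomycin replicate 1, where the median was 4.20, so the size of its rise is uncertain. A second, dimmer row of Psma5 differed by 0.34 ± 0.22 and did not pass. Psma1, Psma2 and Psma6 differed by 0.26, 0.21 and 0.12 and did not pass, and only Psma6 had overlapping groups.

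The beta rings hold the active sites. Of 7 beta genes 1 rose, with a median of 0.11 and a range from -0.05 to 0.29, and the groups did not overlap in 3. That 1 gene is 14.3% of them, near the share of all genes that rose, 9.12%. Bleomycin arrays lay wholly above the controls in 12.5% of all genes. The difference between the rings was not tested. Psmb5 carries the chymotrypsin-like site, the main target of proteasome inhibitors. It read 7.64, 7.65, 7.72 and 7.79 in controls and 8.08, 7.95, 8.03 and 7.88 after bleomycin, and rose by 0.29 ± 0.09 (adjusted p = 0.0423). Psmb6, which carries the caspase-like site, read 8.14, 7.92, 8.17 and 8.12 against 8.19, 8.14, 8.14 and 8.19. Only control replicate 2 stood below the rest, and the difference was 0.08 with a 95% interval from -0.11 to 0.27 (adjusted p = 0.596). Psmb7, with the trypsin-like site, read 9.23, 9.15, 9.23 and 9.31 against 9.29, 9.12, 9.38 and 9.37. On the bleomycin arrays replicates 3 and 4 lay above every control and replicate 2 below every control, and the difference was 0.06 with an interval from -0.14 to 0.26 (adjusted p = 0.699). The structural subunits Psmb1, Psmb4 and Psmb2 differed by 0.27, 0.20 and 0.11 and Psmb3 by -0.05, with an interval from -0.28 to 0.17.

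Whether the catalytic genes differed from each other was tested within arrays, where scaling cancels. The Psmb5 signal minus that of Psmb7 was -1.59 to -1.51 on control and -1.49 to -1.18 on bleomycin arrays, a change of 0.23 ± 0.08 (exact permutation test, two-sided, p = 0.0286, the smallest that 4 against 4 arrays allow). Against Psmb6 the change was 0.21 ± 0.07 (exact permutation p = 0.0571). Between Psmb6 and Psmb7 it was 0.02 ± 0.07 (exact permutation p = 0.857). Over the 6 pairs compared, those with the interferon-inducible subunits included, the smallest adjusted exact permutation p was 0.171, and a single pair cannot go below that in this design. The pairs were also chosen after the values were seen, so whether the catalytic genes changed unequally cannot be told from this test.

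In inflamed tissue the catalytic subunits can be exchanged for Psmb8, Psmb9 and Psmb10, which interferon induces and which take the places of Psmb5, Psmb6 and Psmb7. Psmb8 differed by 0.33 ± 0.11, with controls of 7.57, 7.42, 7.24 and 7.22 and bleomycin arrays of 7.84, 7.53, 7.73 and 7.66, and did not pass (adjusted p = 0.064). Psmb9 and Psmb10 differed by -0.06 and 0.02, did not pass, and the sign of both changed with single arrays left out. The within-array difference of each constitutive gene and its counterpart changed by -0.04 ± 0.13 for Psmb5 and Psmb8, 0.14 ± 0.12 for Psmb6 and Psmb9, and 0.04 ± 0.08 for Psmb7 and Psmb10. Psme1, a subunit of the interferon-inducible cap, differed by 0.16 ± 0.08 (adjusted p = 0.203). Of 7 interferon-inducible and tissue-specific subunits none rose or fell, with a median of 0.02, where 9.12% of all genes rose and 8.24% fell.

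**Figure D4:**
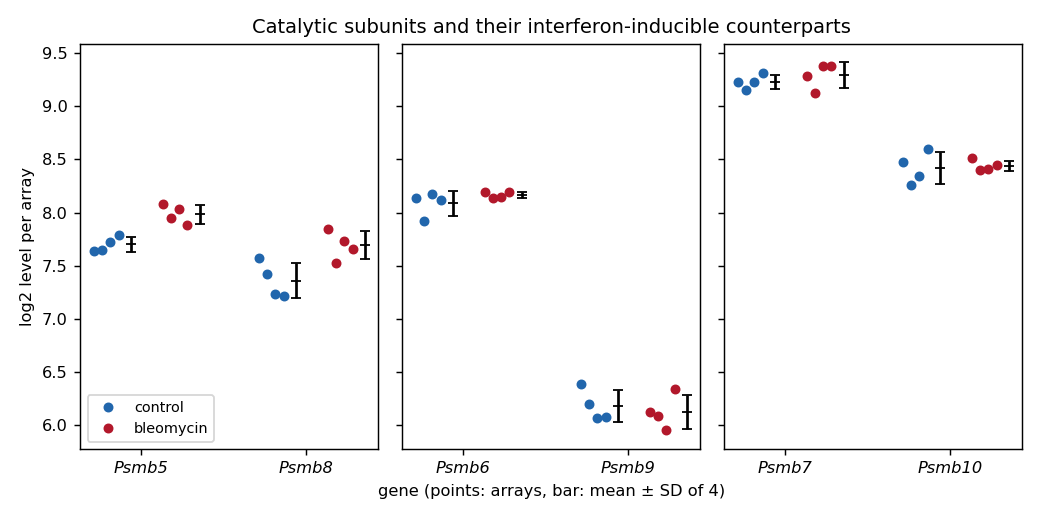
Log2 level per array (vertical) of the 3 catalytic core genes and their interferon-inducible counterparts, control in blue and bleomycin in red, with mean ± SD of 4 arrays as black bars. The red points of Psmb5 lie wholly above the blue ones, and those of the other 5 genes overlap them.

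The base of the cap is a ring of ATPases that unfolds proteins and threads them into the core. Of its 6 ATPase genes 1 rose, with a median of 0.23, and the groups did not overlap in 3. That 1 gene is 16.7% of them, against 9.12% of all genes. In 12.5% of all genes the bleomycin arrays lay wholly above the controls. Psmc4 read 8.41, 8.33, 8.41 and 8.60 in controls and 8.85, 8.79, 8.93 and 8.86 after bleomycin. Its groups were well apart, and it rose by 0.42 ± 0.09 (adjusted p = 0.00883). Psmc2 read 8.45, 8.49, 8.54 and 8.67 against 8.90, 8.71, 9.04 and 8.76, a difference of 0.32 ± 0.10 just outside the threshold. With every row of a single gene tested, its second, dimmer row rose by 0.72 ± 0.17 (adjusted p = 0.0177) while the brighter did not pass, so the call for Psmc2 depends on the row. Psmc1, Psmc3, Psmc5 and Psmc6 differed by 0.16 to 0.24.

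Beside the ATPases the base holds Psmd1 and Psmd2, large scaffolds that dock ubiquitin receptors and shuttle proteins, and the ubiquitin receptor Psmd4. Psmd2 rose by 0.43 ± 0.11, from 8.54, 8.47, 8.55 and 8.66 to 9.09, 8.71, 9.17 and 8.96 (adjusted p = 0.0224). Bleomycin replicate 2 stood close to the highest control. Psmd1 and Psmd4 differed by 0.20 and 0.13 with groups that did not overlap, and did not pass.

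The lid removes the ubiquitin chain before a protein is degraded. Among the roles it had the highest share of genes that rose, 5 of 8, with a median of 0.30 and no overlap in 6. Of all genes 9.12% rose and 12.5% had bleomycin arrays wholly above the controls. Differences between roles were not tested. Psmd8 read 9.16, 9.14, 9.04 and 9.02 in controls and 9.68, 9.56, 9.51 and 9.47 after bleomycin. The gap between the groups exceeded the range of either, and it rose by 0.47 ± 0.08, or 1.38-fold (adjusted p = 0.00415). Psmd6 rose by 0.45 ± 0.09, from 7.20, 7.15, 7.27 and 7.40 to 7.83, 7.58, 7.74 and 7.69 (adjusted p = 0.00766). Psmd7, the structural partner of the deubiquitinase, rose by 0.36 ± 0.09, from 9.18, 9.26, 9.20 and 9.25 to 9.76, 9.64, 9.48 and 9.45 (adjusted p = 0.0236). Psmd12 and Psmd13 rose by 0.30 and 0.29. They passed in 3 and 0 of the 8 fits that left out 1 array, and neither passed with median centring. The deubiquitinase gene itself, Psmd14, differed by 0.13 with an interval from -0.06 to 0.32, Psmd11 by 0.24 and Psmd3 by 0.11. Among the lid genes Psmd3 varied most between arrays of a group (SD of 0.18 in control and 0.21 in bleomycin arrays) and differed by -0.03 without control replicates 1 and 2. Sem1, a small lid protein outside the symbol rule, rose by 0.45 ± 0.09 (adjusted p = 0.0069) and passed without each single array.

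Psmd10, also called gankyrin, rose most. It is a chaperone that binds the ATPase Psmc4 while the base is built, is not part of the finished particle, and is also known to bind regulators of the cell cycle. It read 6.09, 6.30, 6.36 and 6.36 in controls and 7.18, 6.79, 7.27 and 6.89 after bleomycin. Every bleomycin array lay far above the controls, and the difference was 0.76 ± 0.12, or 1.69-fold (adjusted p = 0.00239). The other base chaperones, Psmd5 and Psmd9, differed by 0.13 and 0.09 and did not pass. None of the core chaperones passed: Psmg1 and Psmg2, which pair to start the alpha ring, differed by 0.23 each, and Psmg3 and Psmg4 by 0.05 and 0.15. At an unadjusted p under 0.05, Psmg1 and Psmg2 were higher.

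The activator Psme3 opens the core without need of ubiquitin, mainly in the nucleus. It rose by 0.37 ± 0.10, from 7.62, 7.56, 7.36 and 7.53 to 8.08, 7.77, 7.87 and 7.81 (adjusted p = 0.0292). Psme4, an activator linked to chromatin, and the inhibitor Psmf1 differed by 0.15 and 0.10 and did not pass.

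Since subunit genes are known to share control through their promoters, the sequence before their starts was searched in RefSeq's promoters (GRCm38.p6). Of the 40 genes 33 had an entry, with 35 promoters, and Psmb1, Psmb2, Psmb7, Psmc3, Psmd3, Psmd7 and Psmg2 had none. In the 250 bases before the start, the motif TGACNNNGC, the core of the antioxidant response element to which Nfe2l1 and Nfe2l2 bind with small Maf proteins, occurred on either strand in 5 promoters, or 14.3%, against 10.2% of all 32851. These were Psmb5, Psmb6, Psmc6, Psmd9 and Psmd12. CCAAT, the motif of the factor NF-Y, occurred on either strand in 12, or 34.3%, against 33.8%. Of the 12 genes with an entry that rose, 2 held the former motif and 4 the latter, and of the 21 others 3 and 8. Matches are letters only and show no binding. The 100 bases before the start are shown for Psmb5, which rose, for Psmb6, which did not pass, and for Psmd10, which rose most. They are written 5′ to 3′ on the strand of the gene, with capitals for TGACNNNGC in Psmb5 (chr14:54617996-54618095, minus strand) and Psmb6 (chr11:70525257-70525356, plus strand) and for CCAAT, read here as ATTGG, in Psmd10 (chrX:140956712-140956811, minus strand). No 2 matches overlap in these windows.
Psmb5: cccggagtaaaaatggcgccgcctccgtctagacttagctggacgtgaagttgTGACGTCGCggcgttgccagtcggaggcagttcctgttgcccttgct
Psmb6: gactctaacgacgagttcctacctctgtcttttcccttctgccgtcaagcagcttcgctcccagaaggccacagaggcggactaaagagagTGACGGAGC
Psmd10: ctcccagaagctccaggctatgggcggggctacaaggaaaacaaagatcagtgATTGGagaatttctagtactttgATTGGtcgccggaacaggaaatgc
The match begins 47 bases before the start in Psmb5 and 9 bases before it in Psmb6.

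No transcript of the factors themselves passed as higher. Of 8 genes of proteasome transcription and its processing none rose and 1 fell, with a median of -0.14. Of all genes 9.12% rose and 8.24% fell. Nfe2l1 differed by 0.08 with an interval from -0.15 to 0.30 and Nfe2l2 by -0.06 with an interval from -0.23 to 0.10. Both intervals include 0. Nfe2l1 is known to be regulated by processing of its protein, which arrays do not measure. The part of Nfe2l1 and Nfe2l2 in the proteasome result was not tested. The small Maf gene Mafk, a partner of both, fell by 0.69 ± 0.10, from 8.43, 8.38, 8.30 and 8.48 to 7.61, 7.62, 7.66 and 7.94 (adjusted p = 0.00102). Maff and Ngly1, of the same list, differed by -0.17 and -0.24 and did not pass. In 3 of the 8 genes, these and Mafk, every bleomycin array lay below every control array, and in none above. That was so, in the lower direction, for 2436 of all 22180 genes. Of the 8 differences 2 were above 0.

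Further genes of the pathway moved in both directions. Of 6 measured cap subunits and factors named otherwise 2 rose, Sem1 and the cap-associated thioredoxin Txnl1, by 0.33 ± 0.10. None fell, and the median of the 6 was 0.08, with 3 above 0 and 3 below. At an unadjusted p under 0.05, 2 were higher and 1 lower, where 16.5% and 14.1% of all genes were. The p97 segregase extracts tagged proteins from membranes and complexes. Of its 6 genes 2 rose, Vcp itself by 0.34 ± 0.09 and the membrane adaptor Faf2 by 0.37 ± 0.09 (limma adjusted p of 0.0229 and 0.0166). For both lists the share of all genes that rose was 9.12%. In the 8 fits that left out 1 array, Txnl1 passed in 2, Vcp in 3 and Faf2 in 7. Of 8 deubiquitinases and shuttle receptors none rose and 1 fell, where 9.12% of all genes rose and 8.24% fell. Their median difference was 0.20, with 6 above 0 and 2 below. At an unadjusted p under 0.05, 3 were higher and 1 lower, against 16.5% and 14.1% of all genes. The gene that fell was the zinc finger protein Zfand5, which stimulates the proteasome, by 0.33 ± 0.08 (limma adjusted p = 0.017). The ubiquitin-activating enzyme Uba6 differed by 0.21 ± 0.11 and did not pass.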

How the data were processed

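The deposited table gives 1 value per probe row and array. The deposited values are taken as log2 because they run from 0.24 to 13.58, although the table names no scale. How the authors made these log2 values from the scans (background correction, normalization and summary of probes) is not stated in the labels read for this work. Per the labels' protocols, biotinylated cRNA was made from 100 ng of total RNA. Of 41345 rows, 23521 had 1 gene in the platform annotation, 1814 several and 16010 none. Values were used as deposited, and detection calls were not used. The 22180 genes were fitted in R 4.3.3 by limma 3.58.1 (lmFit, then eBayes). Tests were two-sided, p-values were adjusted over all genes by the Benjamini-Hochberg method, and the threshold was 0.05. Intervals are limma's 95% intervals. Within-array differences were tested by exact permutation over all 70 splits. Figures were drawn with matplotlib 3.10.9. The test was also run on simulated data with independent noise for each gene. That setting does not cover genes that vary together, so it does not bear on the counts of members.

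The members and lists were chosen with earlier results of these data known. Values per array are given for Psmb5, Psmb6 and Psmb7, the members with the highest and lowest mean, the 8 largest differences, and members whose rows differ in call; from each pathway list up to 3 passing genes per direction are named, or else the 2 brightest. Psmb8, Psmb9, Nfe2l1, Nfe2l2, Maff and Ngly1 were added after their values were seen. So were the pairs within arrays, the promoter motifs and windows and per-array values of Psmb8 and Mafk. Adrm1, Paaf1, Ddi2, Ccnb1 and 5 of the 6 ubiquitin genes were not analysed here. All 40 members matched RefSeq by Entrez identifier. Arrays have no read depth, and their number limits the precision. The alternatives were 9 planned and 5 added.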

Additional observations from a re-analysis of the deposited data

Results flagged for a closer look

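Of 102 groups of 4 arrays tested for a value far from the others, 2 stood out, where chance gives about 1 in 20. Psma5 on control replicate 1 was 3.71, with the other controls between 3.89 and 3.92, and without that array its difference was 0.24 and did not pass, as in each of the 8 fits that left out 1 array. Mafk on bleomycin replicate 4 was 7.94, with the others between 7.61 and 7.66, and without that array its difference was -0.77.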

How the results depend on the processing

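The number of members that rose was 13 as reported, 4 at an adjusted p threshold of 0.01, 3 without control replicates 1 and 2, and 0 within replicates 1 and 2 or replicates 3 and 4 alone. With 1 array left out it was 4 to 12. The corresponding counts for all genes were 2022 higher and 1828 lower as reported, 1079 and 879 at the stricter threshold, 1205 and 992 without control replicates 1 and 2, 838 and 833 within replicates 1 and 2, 503 and 220 within replicates 3 and 4, and 1497 to 1987 and 1306 to 1883 with 1 array left out. No member fell in any of these fits, and none was lower at an unadjusted p under 0.05. The median of the core stayed between 0.16 and 0.25 in all fits. That of the cap was 0.19 to 0.29 except within replicates 1 and 2, where it was 0.33. With the replicate number as a replicate block 9 members rose. The numbers are no pairing in the labels, deviations of same-numbered arrays correlated by 0.13, 0.06, 0.11 and 0.06, and control replicate 2 was closer to bleomycin replicate 1 than to replicate 2. Between the groups, replicates 1 and 2 correlated with each other by 0.06 to 0.13, as did replicates 3 and 4. Across these 2 sets the correlations were -0.07 to -0.14. The cause of this pattern was not tested.

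Signs reversed for 5 genes that had passed nowhere in these fits. Within replicates 1 and 2 Psmb3 differed by 0.049 and Psmd9 by -0.015. Without control replicates 1 and 2 Psmd3, Psmb9 and Psmb10 differed by -0.033, 0.053 and -0.028. Within replicates 3 and 4 Psmb9 and Psmb10 differed by 0.072 and -0.045, and with median centring Psmb10 by -0.027. With 1 array left out Psmb9 ranged from -0.13 to 0.011 and Psmb10 from -0.030 to 0.082. The cause of these changes was not tested beyond the smaller number of arrays. Fits with quantile normalization, array weights, a trended and robust eBayes, the mean of all rows of a gene, without the dimmest 30% or 50% of genes, or with pairs of replicates as a block gave 13 to 16 members, where 8.63% to 18.4% of all genes rose. The 16 members and the 18.4% are both from the fit without the dimmest 50%. Those without control replicates 1 and 2, within pairs, with such a block and without the dimmest 50% were chosen after seeing the data.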
